A study of Mus musculus with 18 samples.

Results

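PD883 is 1 of 3 mouse pancreatic ductal adenocarcinoma lines whose RNA was sequenced, and it contributed 6 of the 18 libraries. Its members were chosen by the line named in the sample labels alone, with no use of measured values. It had 2 libraries from cells kept for 48 h with 2.5 µM ionomycin, which lets calcium into cells, 2 with 10 ng/ml TGFb, the cytokine that drives epithelial-mesenchymal transition, and 2 with DMSO, the solvent. The lines PD454 and PD7591 served as the comparison and had the same treatments, doses, time and number of libraries. All 3 lines carry the tissue label pancreas and a mixed strain background. The labels give no driver alleles, sex or number of tumours of origin, and each line stands for itself alone, so no difference below can be assigned to a genotype. They also leave unsaid if duplicates were separate cultures, so the p-values measure the spread between these libraries, which may be technical. Over all treatments, that spread is the one left by a model of line and treatment. It therefore also holds any change of the line differences with treatment.

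Pancreatic ductal adenocarcinoma is a gland-forming carcinoma of the exocrine pancreas, an organ that buds from the foregut next to the stomach, duodenum and liver. Its cells keep factors of that origin, among them PDX1, GATA6, FOXA2 and HNF4A, and many tumours also switch on gastric or intestinal genes that the healthy duct lacks. Lines also differ in how far they hold keratins and cell junctions or take up mesenchymal genes. TGFb moves these same genes, so the line differences described here were required to hold with treatment as a block, and were then looked at within each treatment.

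Each gene was tested on raw counts with edgeR's quasi-likelihood test in a model of line and treatment, and is said to be called where its Benjamini-Hochberg adjusted p was under 0.05 over the 13380 autosomal or unplaced genes tested. PD883 differed from the mean of the other lines at 6023 genes, 45% of those tested, with 3304 higher (24.7%) and 2719 lower (20.3%). Against PD454 alone 5766 genes were called (43.1%) and against PD7591 alone 5540 (41.4%). These comparisons share the PD883 libraries. A gene is called apart below if it was called in the same direction in all 3 of them and had that sign in each treatment. The sign within a treatment was that of PD883 against the mean of the other lines. A gene apart can therefore lie level with 1 of those lines in a treatment. There were 2951 genes apart (22.1%), 1621 higher (12.1%) and 1330 lower (9.94%). The other called genes often followed a single comparison line: 2890 of the 6023 were called in that direction against exactly 1 of the lines. Most differences were small. The median size of the log2 fold change was 0.59 among called genes and 0.71 among the genes apart, and 909 of the genes apart reached a log2 fold change of 1 in size. At 352 of the 13380 genes all 6 PD883 libraries lay beyond all 12 others in CPM, a gene's counts per library size, in the usual per-million units, with the sizes scaled by edgeR's TMM method over the tested genes. All but 2 of these were among the genes apart, 173 of them higher and 177 lower.

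In a principal component analysis of log2 CPM, treatment took the leading component, with 44% of the variance and 97.5% of its spread between treatments. Component 2, with 16.5% of the variance, held 96.8% of its spread between lines and 92.4% between PD883 and the rest. Component 3, with 13.9%, held 94.2% of its spread between lines but 3.91% between PD883 and the rest, and it parted PD7591 from PD454. The plot of these components shows PD883 alone at the right in all 3 treatments.

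**Figure D1:**
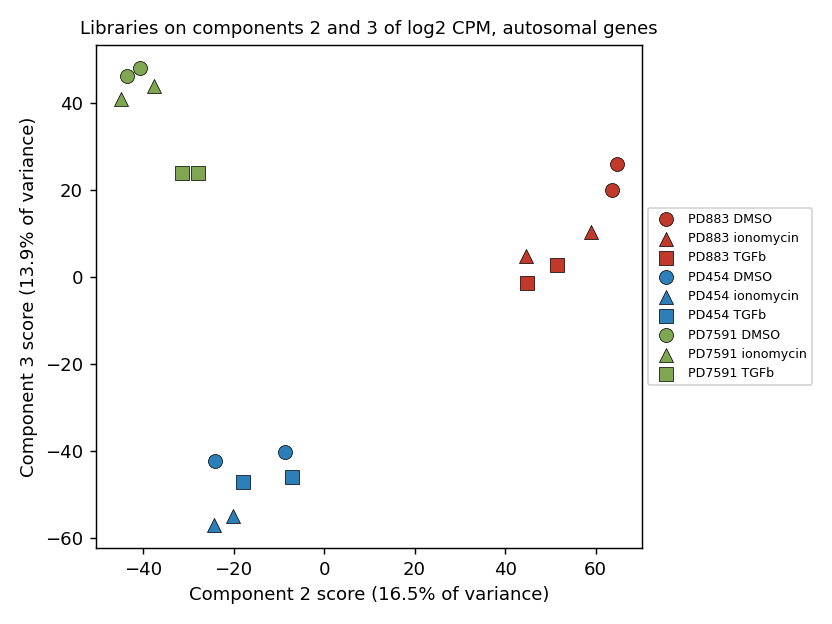
Scores of the 18 libraries on component 2 (horizontal axis) and component 3 (vertical axis) of log2 CPM over autosomal genes; colour gives the line and shape the treatment. The 6 PD883 libraries stand together on component 2, which carried 16.5% of the variance, away from the 12 libraries of PD454 and PD7591.

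Library totals ran from 17591005 to 37894692 counts. Duplicates correlated at 0.981 to 0.993 in log2 CPM and differed by more than counting noise in every group. Correlations of gene length with a gene's deviation from its mean ran from -0.218 to 0.054 in PD883 libraries, from -0.208 to 0.139 in PD454 and from -0.029 to 0.167 in PD7591 (13061 genes, as a description). The 4 lowest, in which short transcripts weighed most, were libraries 8 (DMSO) and 12 (TGFb) of PD883 and 14 (DMSO) and 18 (TGFb) of PD454. Without those 4 libraries 5629 genes were called and 2817 were apart. Among the libraries kept, those of PD883 still had the lowest correlations in each treatment. With DMSO it was 5.8e-05 in PD883, against 0.097 to 0.167 in the other lines. With ionomycin PD883 had -0.050 and 0.054, against 0.071 to 0.141, and with TGFb -0.069, against -0.029 to 0.111. Leaving out the 4 thus does not free the line comparison of transcript length, whose part in the calls was not tested. With the duplicates of each group summed into 1 sample, 3091 genes were called and 1162 were apart.

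Duct-type carcinoma markers were present in PD883, as its label says. The summed level of 11 duct-type markers was 4190 to 7718 CPM in PD883, against 6023 to 9227 CPM in PD454 and 4592 to 5664 CPM in PD7591. Markers of acinar and endocrine cells were near 0 in PD883. There 18 acinar genes summed to 1.11 to 5.46 CPM, with Cpa1, Prss1 and Pnlip among 10 that had no counts. The 19 endocrine genes summed to 0.62 to 2.12 CPM, with Ins1, Ins2 and Sst at 0. Endothelial markers summed to 26.7 to 152 CPM in PD883, against 36.9 to 66.4 CPM in PD454 and 70.3 to 96.6 CPM in PD7591. Most of that came from Flt1 in every line. The fibroblast list summed to 3.82 to 106 CPM in PD883, against 3.73 to 24.6 CPM in PD454 and 2.88 to 10.5 CPM in PD7591, and its high values came with TGFb and from Col1a1. Thy1 and Fap stayed below the filter on low counts and Lum had no counts in PD883. Immune markers summed to 24.7 to 81.8 CPM in PD883, against 37.9 to 51 CPM in PD454 and 24.5 to 203 CPM in PD7591, with most of it from Cd14 and then Cd68 in every line, and Ptprc, the marker of all leukocytes, was below the filter. Basal and squamous markers Trp63 and Krt5 were below the filter too, with 1 and 3 counts over all PD883 libraries. In such bulk RNA, fewer cells with a gene and less of its RNA per cell cannot be told apart.

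Cldn18, which encodes claudin-18, a tight junction protein of stomach and lung epithelium that also appears in pancreatic cancer, had the largest difference of all genes apart. It measured 1835 and 1213 CPM in PD883 with DMSO, 2453 and 2267 CPM with ionomycin and 401 and 363 CPM with TGFb. All 12 libraries of PD454 and PD7591 lay at 0.111 to 4.96 CPM. No library of either comparison line came near the lowest of PD883, and the log2 fold change was 9.43 ± 0.29 (edgeR, adjusted p = 8.0e-14). The gene lies at chr9:99690796-99717267 in mouse build GRCm38 and starts at a pair of sites, known in mouse to serve a lung and a stomach form. The counts are per gene and do not separate them. The windows around both starts are shown because this gene sets PD883 apart most; capitals mark the 50 bases from the start site on, the strand is minus, and the letters are those of RefSeq GRCm38.p6, at chr9:99717218-99717517 for the upstream start and chr9:99710014-99710313 for the inner one.
Cldn18 upstream start: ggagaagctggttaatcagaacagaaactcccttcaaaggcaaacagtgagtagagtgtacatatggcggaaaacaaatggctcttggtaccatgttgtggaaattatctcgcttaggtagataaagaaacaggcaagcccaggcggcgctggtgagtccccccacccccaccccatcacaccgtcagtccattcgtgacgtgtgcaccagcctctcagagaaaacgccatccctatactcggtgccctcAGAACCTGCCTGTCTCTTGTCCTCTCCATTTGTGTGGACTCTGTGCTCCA
Cldn18 inner start: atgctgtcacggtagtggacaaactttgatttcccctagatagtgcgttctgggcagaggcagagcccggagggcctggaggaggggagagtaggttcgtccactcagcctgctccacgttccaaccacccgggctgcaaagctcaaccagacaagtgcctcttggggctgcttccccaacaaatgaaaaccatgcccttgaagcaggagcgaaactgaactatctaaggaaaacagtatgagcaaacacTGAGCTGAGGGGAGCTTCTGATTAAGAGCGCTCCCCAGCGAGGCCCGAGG

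Other genes of gastric and intestinal epithelium did not move with Cldn18 as a group. Of 24 genes in the gastric, mucous and classical subtype list, 7 were called higher and 8 lower, with 2 and 4 of them apart. The shares were 29.2% and 33.3%, against a background of 24.7% and 20.3% over all genes. The median log2 fold change of the list was -0.22, against 0.02 over all genes, and without the ionomycin libraries 5 were lower. That background holds for every list below, but not for counts from altered settings, which have their own. With duplicates summed, 1786 of all 13380 genes were higher and 1305 lower. The counts were 2210 and 1712 without DMSO, 2698 and 2131 without ionomycin, and 2839 and 2550 without TGFb. Leaving out libraries 8, 12, 14 and 18 gave 3057 and 2572. Cdh17, the liver-intestine cadherin, had 16.9, 202 and 321 CPM (lowest, median and highest) in PD883, against 23.9, 72 and 82.8 CPM in PD454 and 6.68, 28.8 and 72.6 CPM in PD7591. It was higher by 1.56 ± 0.23 on the log2 scale (adjusted p = 3.4e-05), although the PD883 libraries overlapped the others. With TGFb it had 23.4 and 16.9 CPM in PD883, against 28.4 and 23.9 CPM in PD454 and 10.2 and 6.68 CPM in PD7591. Cdhr5, a protocadherin of the intestinal brush border, had 40.6 and 32.6 CPM in PD883 with DMSO, against 7.3 and 9.62 CPM in PD454 and 1.14 and 1.07 CPM in PD7591 (3.20 ± 0.20, adjusted p = 8.0e-10). With TGFb it was at 0.565 and 0.469 CPM in PD883, against 0.545 and 0.0944 CPM in PD454 and no counts in PD7591, and within a treatment PD883 overlapped another line only there. The secreted and membrane mucins ran the other way. Muc1, the membrane mucin of ducts, had 0.801, 4.59 and 14.2 CPM in PD883, against 2.02, 41.7 and 105 CPM in PD454 and 1.57, 45.2 and 68.1 CPM in PD7591 (-2.67 ± 0.28, adjusted p = 9.1e-07). Muc5ac (-2.47 ± 0.31) and Muc5b (-2.22 ± 0.44), the gel-forming mucins of stomach and airway surfaces, were also lower in PD883, at levels of at most 7.21 CPM in any library. Tff2, a trefoil peptide of gastric glands, was below the filter, with 26 counts in PD883, 7 in PD454 and 16 in PD7591.

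Among the other leading genes higher in PD883, Sulf2, an extracellular enzyme that trims heparan sulfate, had 9.53, 13.7 and 30.5 CPM in PD883, against 0.218, 0.403 and 1.04 CPM in PD454 and 0.0444, 0.275 and 0.865 CPM in PD7591, a log2 fold change of 5.45 ± 0.22. Syt13, a synaptotagmin of membrane traffic that marks endocrine precursors of the mouse pancreas, had 29 and 31.9 CPM in PD883 with DMSO and 198 and 172 CPM with TGFb, against at most 5.57 CPM in any library of the other lines (5.07 ± 0.25). Neither gene overlapped between PD883 and the rest. Slc17a8, a vesicular glutamate transporter, was higher by 5.12 ± 0.32 without overlap, at 2.17 to 17.8 CPM in PD883 and 0 to 0.443 CPM in the other lines. Tm4sf4, a tetraspanin-like membrane protein, had 11, 86.2 and 161 CPM in PD883, against 0.491 to 0.888 CPM in PD454 and 2.72 to 26.7 CPM in PD7591 (4.51 ± 0.28); within each treatment PD883 lay above both lines. Rnf144b, a ubiquitin ligase gene, was at 114 and 69 CPM in PD883 with DMSO, against 4.79 and 4.22 CPM in PD454 and 4.14 and 5.15 CPM in PD7591 (3.98 ± 0.22). The serpin genes Serpina3h (7.23 ± 0.49) and Serpina3i (7.83 ± 0.41) on chromosome 12 were nearly silent in the other lines, at no more than 1.88 CPM, but they belong to a family of near-identical copies, and reads could have been shared between them. The same caution applies to Rpl29 (5.04 ± 0.18), a ribosomal protein gene with many processed copies, and to Pcdhgb2 (4.69 ± 0.26), of whose exonic bases 43.4% are shared with other gamma protocadherin genes.

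The genes most reduced in PD883 include several transcription factors. Irx3, a homeobox factor at chr8:91798511-91801654, had 0.235, 0.715 and 1.18 CPM in PD883, against 28.8, 35.5 and 66.4 CPM in PD454 and 29.3, 40.3 and 75.3 CPM in PD7591. Its groups were far from overlapping, with a log2 fold change of -5.87 ± 0.24 (adjusted p = 3.3e-12). Tfap2a, the AP-2 alpha factor of ectoderm and breast epithelium, had 0 to 0.33 CPM in PD883, against 6.42 to 14.3 CPM in PD454 and 6.57 to 20.6 CPM in PD7591 (-5.86 ± 0.33). Bnc1, a zinc finger factor of stratified epithelium and mesothelium, had 0.153 to 1.51 CPM in PD883, against 5.27 to 17.9 CPM in PD454 and 26.9 to 43.2 CPM in PD7591 (-5.38 ± 0.35). All 3 factors were below every comparison library in each PD883 library. So were Slco3a1, an organic anion transporter, at 2.68 to 4.74 CPM in PD883 and 79.9 to 165 CPM in the other lines (-4.95 ± 0.19), and Uggt2, a glucosyltransferase of glycoprotein folding, at 0.308 to 0.706 and 7.99 to 22.6 CPM (-4.68 ± 0.15). Pxdn, the peroxidase that crosslinks collagen IV in basement membranes, measured 5.21 and 4.32 CPM with DMSO and 24.8 and 22.4 CPM with TGFb in PD883, against 125 and 84.2 and 472 and 382 CPM in PD454 and 131 and 138 and 468 and 466 CPM in PD7591 (-4.73 ± 0.22). Its level with TGFb in PD883 stayed under the DMSO level of each other line. Epb41l4a, a FERM domain gene, had 0.154 to 0.643 CPM in PD883, against 8.95 to 13.8 CPM in PD454 and 80.0 to 103 CPM in PD7591 (-6.21 ± 0.19), so PD883 was lowest and PD454 intermediate. Jph1 (-4.65 ± 0.19), which tethers the plasma membrane to the calcium store in muscle, and Scn8a (-4.62 ± 0.45), a voltage-gated sodium channel, were also lower in all 6 libraries. Ttc9 (-5.28 ± 0.38) was lower in all 6 as well, and Hkdc1 (-5.29 ± 0.31), a hexokinase domain gene, was lower within each treatment. Rangrf had the lowest fold change of the genes named here (-7.31 ± 0.38), but 90.7% of its exonic bases overlap Slc25a35 on the opposite strand, and the strand mode of the counting is not given in the sources used here.

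**Figure D2:**
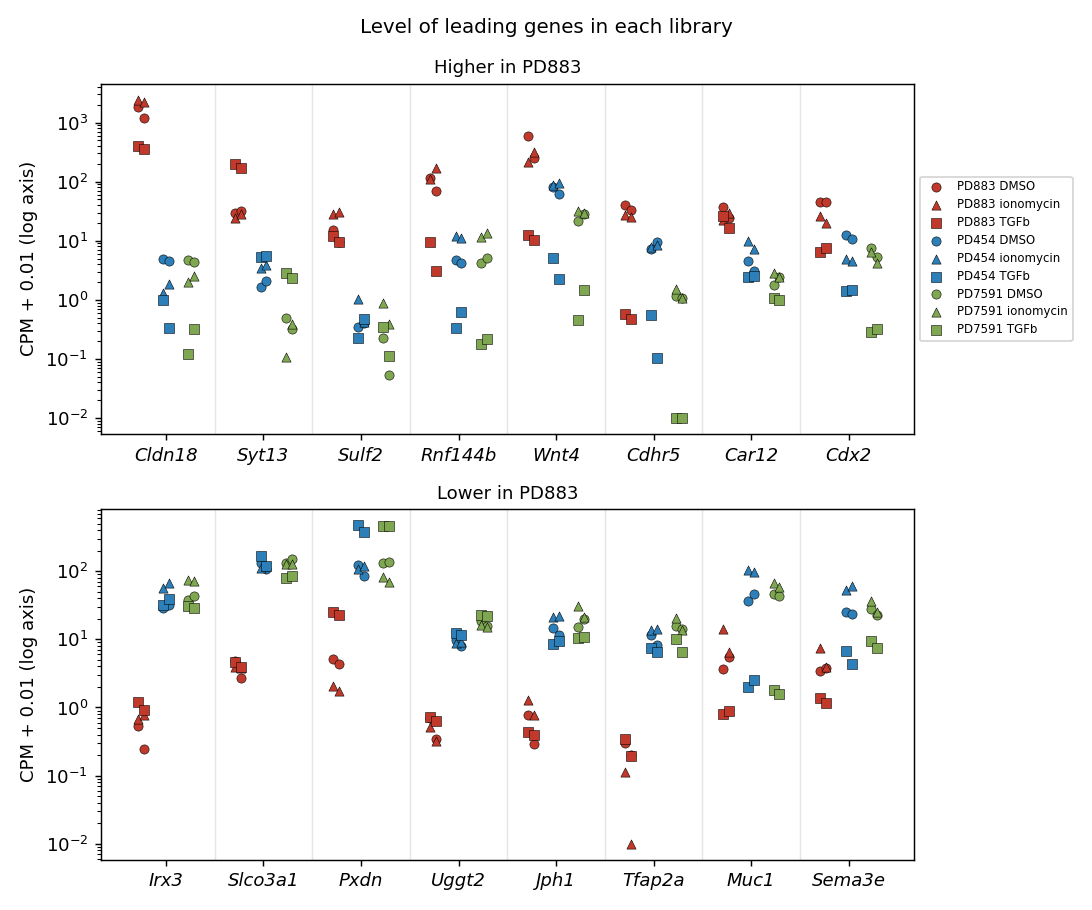
CPM of 8 genes higher (upper panel) and 8 lower (lower panel) in PD883 in each of the 18 libraries, on a log axis after adding 0.01; red points are PD883, blue PD454 and green PD7591, and the shape gives the treatment. Cldn18 lies at 363 to 2453 CPM in PD883 and at no more than 4.96 CPM in the other lines, and Irx3 at no more than 1.18 CPM in PD883 and at least 28.8 CPM in the others.

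Among lineage factors of the pancreas, Pdx1, the factor that specifies pancreas and duodenum, had 7.53, 17.2 and 35.1 CPM in PD883, against 8.63, 18.5 and 30.2 CPM in PD454 and 7.59, 19 and 31.8 CPM in PD7591, and its log2 fold change of 0.03 ± 0.14 was not called. Sox9, the duct progenitor factor, had 20.6, 37.8 and 115 CPM in PD883, against 5.82, 7.22 and 80.6 CPM in PD454 and 18.5, 48.8 and 165 CPM in PD7591. It was not called against the mean of those lines (0.46 ± 0.28) but was higher than in PD454 (1.45 ± 0.34, adjusted p = 0.0022), and its difference depended on treatment (adjusted p = 0.04), with a log2 fold change of 1.39 ± 0.27 with ionomycin. Foxa2 (-0.31 ± 0.20) and Hnf4a (-0.55 ± 0.28), of endoderm and liver, were not called against the mean either, and their differences by treatment are given further on. Gata4, of foregut endoderm, was called (1.33 ± 0.09) through PD7591 alone: it measured 20.5 to 75.2 CPM in PD883 and 3.7 to 12.3 CPM in PD7591, while PD454 had 29.6 to 82.6 CPM. Gata6, the factor linked to the classical subtype, was lower in PD883 than in each other line, at 9.32, 33.7 and 43.1 CPM in PD883, against 23.2, 57.3 and 80.1 CPM in PD454 and 20.4, 72.6 and 92.2 CPM in PD7591 (-0.88 ± 0.14, adjusted p = 7.8e-05). All lines had their low values with TGFb, and the PD883 libraries overlapped the others.

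Of 20 tested lineage factors 5 were called higher and 5 lower, shares of 25% each against 24.7% and 20.3% over all genes, so the count was near the background. Cdx2, the master factor of intestine, had 45.3 and 45.3 CPM with DMSO, 26.6 and 20.3 CPM with ionomycin and 6.45 and 7.39 CPM with TGFb in PD883. In PD454 it had 12.7 and 10.5, 4.96 and 4.62 and 1.42 and 1.46 CPM, and in PD7591 7.47 and 5.24, 6.39 and 4.12 and 0.277 and 0.313 CPM. Within each treatment PD883 was above both lines, and the log2 fold change was 2.51 ± 0.20 (adjusted p = 2.4e-08). Sox2, a factor of the stomach and of stem cells, was detected in all 6 PD883 libraries at 0.753 to 2.05 CPM. It had 173 counts there and 2 counts over the 12 other libraries, a ratio of 156 after scaling to library totals, with a 95% counting interval of 42.6 to 1299.8. Sox17, which in the embryo keeps biliary cells from pancreatic fate, had no counts in PD883, 292 in PD454 and 58 in PD7591. With TGFb it was at 0.0545 and 0.236 CPM in PD454 and 0 and 0.0522 CPM in PD7591, and its difference was not called there (adjusted p = 0.27). Prox1, a factor of pancreas and liver progenitors, was at 0 to 0.203 CPM in PD883, against 0.723 to 1.78 CPM in PD454 and 3.87 to 6.59 CPM in PD7591 (-5.10 ± 0.36). Foxa1 was higher (1.65 ± 0.16), with 6.31, 15 and 19 CPM in PD883, against 6.42, 8.9 and 11 CPM in PD454 and 1.41, 2.18 and 3.43 CPM in PD7591. None of the 39 HOX genes in the list passed the filter in these lines, so a positional code could not be compared.

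Epithelial genes were called in both directions. Cdh1, E-cadherin, had 19.6, 562 and 801 CPM in PD883, against 115, 593 and 635 CPM in PD454 and 42.5, 538 and 639 CPM in PD7591, and was not called (-0.30 ± 0.24, adjusted p = 0.32). With TGFb it had 52.4 and 19.6 CPM in PD883, against 134 and 115 CPM in PD454 and 42.5 and 53.3 CPM in PD7591. The keratins Krt7 (-0.13 ± 0.16) and Krt8 (-0.18 ± 0.12) were not called either, and Krt18 was called through PD454 alone (-0.61 ± 0.12 against that line). Of 40 tested keratin and junction genes 11 were called higher and 11 lower (27.5% each), 3 and 4 of them apart, with a median of -0.21. With duplicates summed 7 were higher and 5 lower, without the DMSO libraries 6 were higher, and without the TGFb libraries 7 were lower. Krt19, the duct keratin, was higher: it had 1792 and 1773 CPM in PD883 with DMSO, against 701 and 725 CPM in PD454 and 496 and 554 CPM in PD7591 (1.42 ± 0.27, adjusted p = 4.0e-04). With TGFb it was far lower in all lines, at 61.5 and 7.55 CPM in PD883, 17.2 and 11.1 CPM in PD454 and 4.32 and 9.29 CPM in PD7591. Cldn3 (1.92 ± 0.28) and Marveld3 (1.63 ± 0.24), both tight junction proteins, were higher too, while the placental cadherin gene Cdh3 (-1.79 ± 0.34) and the periplakin gene Ppl (-1.40 ± 0.30), of desmosomes, were lower. Of 13 squamous and basal genes 3 were called higher (5 without the TGFb libraries) and 3 lower (23.1% each). Sprr1a (2.35 ± 0.39), of the cornified envelope, was higher, and Sfn (-1.70 ± 0.36), 14-3-3 sigma, lower. Sfn was at low levels and overlapped with DMSO, at 1.05 and 0.61 CPM in PD883, 1.28 and 0.934 CPM in PD454 and 1.31 and 0.932 CPM in PD7591. With TGFb it had 0.942 and 0.963 CPM in PD883, against 7.42 and 6.89 CPM in PD454 and 3.1 and 3.23 CPM in PD7591.

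Mesenchymal genes differed in both directions. Of 29 tested members of the mesenchymal list 12 were called higher and 7 lower (41.4% and 24.1%), 5 and 4 apart, with a median of 0.17, and with duplicates summed 7 were higher. Prrx1, a homeobox factor of mesenchyme, had 3.57, 5.44 and 7.21 CPM in PD883, against 0.896, 1.41 and 2.27 CPM in PD454 and 0.104, 0.466 and 0.577 CPM in PD7591 (2.91 ± 0.25, adjusted p = 5.8e-08), with no overlap. Twist2 was higher as well (4.10 ± 0.37), at 1.33 to 3.59 CPM in PD883 and 0 to 0.522 CPM in the others, although 46.5% of its exonic bases overlap a transcript on the opposite strand. Its paralogue Twist1 was lower (-0.76 ± 0.10), at 14.9, 18.5 and 24.5 CPM in PD883, against 19.7, 26.7 and 39.4 CPM in PD454 and 24.3, 42.6 and 54.4 CPM in PD7591. Sparc, a matrix glycoprotein, had 27.3, 105 and 333 CPM in PD883, against 20.3, 25.1 and 53.6 CPM in PD454 and 4.04, 12 and 50 CPM in PD7591 (2.35 ± 0.24). S100a4, also known as fibroblast-specific protein, was higher by 2.10 ± 0.26 without overlap of the groups; 51.7% of its exonic bases are shared with a predicted gene on the same strand. N-cadherin, Cdh2 (-0.61 ± 0.15), K-cadherin, Cdh6 (-0.92 ± 0.15), and the membrane protease Mmp14 (-1.02 ± 0.09) were lower. Vim (0.24 ± 0.15, adjusted p = 0.19) and Zeb1 (-0.18 ± 0.12, adjusted p = 0.26) were not called. Of 22 cadherins 5 were called higher and 10 lower (22.7% and 45.5%), with a median of -0.74, and 3 were higher with duplicates summed, without the TGFb libraries or without the 4 libraries rich in short transcripts; Cdh13, a GPI-anchored cadherin, was lower by a log2 fold change of -2.35 ± 0.25.

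Matrix genes were split. Of 36, 10 were called higher and 12 lower (27.8% and 33.3%), with a median of -0.18, and with duplicates summed 6 were higher and 5 lower. Thbs2 (5.33 ± 0.63) and Fbn1 (3.82 ± 0.41), which encode thrombospondin-2 and the fibril protein fibrillin-1, lay above all other libraries in PD883, at 0.254 to 14.1 and 0.916 to 20.6 CPM in PD883 and at no more than 0.166 and 0.783 CPM in the others. Their high values came with TGFb, at 14.1 and 6.64 CPM for Thbs2 and 20.6 and 13.1 CPM for Fbn1 in PD883. Spp1, osteopontin, had 424, 533 and 1441 CPM in PD883, against 60.5, 185 and 390.3 CPM in PD454 and 169, 485 and 835 CPM in PD7591 (1.40 ± 0.14). Agrn, agrin of basement membranes, was below all other libraries, at 225, 267 and 422 CPM in PD883, against 597, 693 and 818 CPM in PD454 and 534, 662 and 737 CPM in PD7591 (-1.21 ± 0.13, adjusted p = 9.2e-07). Among 29 proteases and inhibitors, 9 were called in each direction (31% each), against 5 each with duplicates summed and 5 lower without the ionomycin libraries. Timp2, an inhibitor of metalloproteinases, was above all other libraries, at 651 to 1213 CPM in PD883 and 309 to 636 CPM in the others (0.82 ± 0.10), and Mmp11, a stromelysin, was higher (1.52 ± 0.17). The S100 and annexin list had 12 of 25 called higher and 3 lower (48% and 12%, against 24.7% and 20.3% over all genes), 5 and 1 apart, with a median of 0.36. With duplicates summed 5 were higher, and without the DMSO libraries 7; S100a1 (1.28 ± 0.16) did not overlap between PD883 and the others, and Anxa13 (-2.45 ± 0.23), an annexin of intestinal epithelium, was lower.

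Among developmental signals, WNT genes showed large single differences without a shift of the list: 7 of 37 were called in each direction, 18.9% each, below the share over all genes, and 5 and 4 were apart. Wnt4, a ligand of kidney and gland development, had 600.2 and 252 CPM in PD883 with DMSO, against 79.7 and 62.4 CPM in PD454 and 21.6 and 28.7 CPM in PD7591 (2.78 ± 0.21, adjusted p = 1.2e-08). With TGFb it was at 12.6 and 10.3 CPM in PD883, 5.02 and 2.26 CPM in PD454 and 0.443 and 1.46 CPM in PD7591, and PD883 stayed above both. Axin2, a feedback inhibitor that WNT signalling itself induces, had 5.31, 9.29 and 19.2 CPM in PD883, against 2.9, 4.47 and 5.74 CPM in PD454 and 0.542, 0.836 and 3.99 CPM in PD7591 (2.04 ± 0.23). Ror2, a receptor of non-canonical WNT, was at 1.03 to 3.25 CPM in PD883 and had no counts in PD7591, so its fitted log2 fold change against PD454 is given (3.72 ± 0.41). Its relative Ror1 was lower (-1.52 ± 0.24), as was the ligand Wnt7a (-4.10 ± 0.45), at 3.77 and 1.49 CPM in PD883 with ionomycin, against 49.6 and 59.7 CPM in PD454 and 21.8 and 18.1 CPM in PD7591. NOTCH genes had 4 of 18 called higher (2 with duplicates summed) and 1 lower (22.2% and 5.56%), with Notch4 (1.87 ± 0.27) apart. Hedgehog genes had 2 of 8 called higher and 1 lower (25% and 12.5%). The shares called higher were near the 24.7% over all genes. The effector Gli3 was higher (1.21 ± 0.20) and the co-receptor Cdon lower (-0.99 ± 0.20).

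Of 44 genes of the TGFb, activin and BMP pathways 17 were called higher and 5 lower (38.6% and 11.4%, against 24.7% and 20.3% over all genes), but only 6 and 2 were apart and the median was 0.08. With duplicates summed 8 were higher and 2 lower, without the DMSO libraries 10 were higher, and without the ionomycin libraries 3 were lower. Id1, a target of BMP signals that inhibits differentiation factors, had 45.8, 141 and 187 CPM in PD883, against 33.4, 112 and 139 CPM in PD454 and 16.5, 54.2 and 58.1 CPM in PD7591 (0.97 ± 0.08, adjusted p = 2.3e-08). Fst, the activin antagonist follistatin (1.72 ± 0.29), and the co-receptor gene Tgfbr3 (1.07 ± 0.19) were higher, and the receptor gene Tgfbr2 (-0.27 ± 0.12, adjusted p = 0.061) was not called. Of 39 ligands and receptors of the FGF, EGF and MET families 11 were called higher and 14 lower (28.2% and 35.9%), with 9 lower when duplicates were summed or the ionomycin libraries left out. Ereg, the EGFR ligand epiregulin, had 6.36, 11.2 and 55.7 CPM in PD883, against 22.6, 32.2 and 113 CPM in PD454 and 15.4, 24.7 and 78.9 CPM in PD7591 (-1.24 ± 0.16, adjusted p = 1.2e-05), and was lower within each treatment. Fgfr1 had 5.03 and 4.79 CPM with DMSO and 262 and 219 CPM with TGFb in PD883, against 0.669 and 0.573 and 45.6 and 47.1 CPM in PD454 and 1.04 and 0.71 and 91.8 and 103 CPM in PD7591 (1.96 ± 0.16). It was high with TGFb in every line and higher in PD883 under each treatment. Kit, the stem cell factor receptor, was higher (3.10 ± 0.32) at no more than 2.05 CPM, and Igfbp4 (0.67 ± 0.09) was higher while Igfbp3 (-1.35 ± 0.19), also an IGF binding protein, and the receptor Ret (-1.75 ± 0.32) were lower. Egfr (-0.22 ± 0.16, adjusted p = 0.28) was not called, and Met (-0.47 ± 0.14) was called through PD454 alone, and not without the ionomycin libraries.

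Of the tumour suppressor and oncogene transcripts in the panel, Trp53 (-0.19 ± 0.22), Smad4 (-0.07 ± 0.10) and Myc (0.08 ± 0.12) were not called, and Trp53 had 1.81, 2.28 and 3.59 CPM in PD883, against 1.53, 2.93 and 4.2 CPM in PD454 and 1.74, 2.98 and 4.1 CPM in PD7591. Cdkn2a, which encodes the p16 and ARF inhibitors, was present in all lines and higher in PD883 (0.47 ± 0.09), with 107, 202 and 293 CPM in PD883, against 75.2, 121 and 170.4 CPM in PD454 and 81.2, 136 and 262 CPM in PD7591. Cdkn2b was called against the mean (0.25 ± 0.08) but was not apart, and its call was lost when any 1 treatment was left out, or without PD883 library 9 (0.21) or 11 (0.22). The cell cycle kinase Cdk6 (-1.25 ± 0.18) was lower. Counts of transcripts say nothing of mutations in these genes.

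Genes of proliferation leaned lower in PD883. Of 36 genes of DNA replication and mitosis 18 were called lower and 1 higher (50% and 2.78%, against 20.3% and 24.7% of all genes), 13 of the lower ones were apart, and the median was -0.38. Without the 4 libraries rich in short transcripts 20 were lower. Mki67, the marker Ki-67 of cycling cells, had 331 and 374 CPM in PD883 with DMSO, against 903 and 522 CPM in PD454 and 766 and 707 CPM in PD7591. With TGFb it had 111 and 106 CPM in PD883, against 487 and 235 CPM in PD454 and 231 and 203 CPM in PD7591, and its log2 fold change was -1.08 ± 0.16 (adjusted p = 4.0e-05). Foxm1, the factor that drives mitotic genes (-0.96 ± 0.12), and Rrm2, a ribonucleotide reductase subunit of S phase (-0.89 ± 0.14), followed. Within each treatment the PD883 libraries lay below both other lines for Foxm1 and Mki67. Of 22 YAP and TAZ targets 6 were called lower and 1 higher (27.3% and 4.55%, against 20.3% and 24.7% over all genes), 2 of the lower ones apart, among them Tead4 (-0.87 ± 0.11) and Amotl1 (-1.16 ± 0.25). With duplicates summed or without the DMSO libraries 2 were lower, and without the ionomycin libraries 3. Of 24 p53 targets 8 were called higher and 3 lower (33.3% and 12.5%, against 24.7% and 20.3% over all genes), 2 and 1 apart. With duplicates summed or without the DMSO libraries 3 were higher, and without the ionomycin libraries 5. Ddit4, an inhibitor of mTORC1 that stress induces, had 501, 719 and 1178 CPM in PD883, against 198, 281 and 599 CPM in PD454 and 170.5, 296 and 424 CPM in PD7591 (1.25 ± 0.18).

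Genes of antigen presentation were mostly higher in PD883. Of 25 MHC and antigen presentation genes 15 were called higher and 1 lower, 60% and 4% against 24.7% and 20.3% of all genes, with 10 and 1 apart and a median of 0.71. B2m, the light chain of MHC class I, had 182 and 219 CPM with DMSO, 171 and 234 CPM with ionomycin and 325 and 319 CPM with TGFb in PD883. It had 59.1 and 90.1, 83.4 and 86.8 and 125 and 194 CPM in PD454 and 98.8 and 99, 92.6 and 87.9 and 245 and 269 CPM in PD7591. Within each treatment PD883 was above both lines (1.04 ± 0.12, adjusted p = 4.4e-06). Tap2, of the peptide transporter, had 2.97, 6.83 and 17.3 CPM in PD883, against 0.981, 2.03 and 3.4 CPM in PD454 and 1.05, 2.64 and 6.7 CPM in PD7591 (1.70 ± 0.17), and Psme1, of the proteasome activator, 58.6, 85.1 and 99.7 CPM in PD883, against 30.9, 36 and 56.6 CPM in PD454 and 38.5, 57.1 and 73.8 CPM in PD7591 (0.81 ± 0.09). The member called lower was the chaperone gene Canx (-0.36 ± 0.11), whose call was lost without the DMSO libraries. MHC genes differ between inbred strains, and the lines are of mixed background. Reads of such alleles can align unequally to the reference, and the part of this in the differences was not tested. A list of 15 genes with known strain differences had 9 called higher and 4 lower, which is 86.7% called, against 45% over all genes, among them Ly6a (1.80 ± 0.19), Ly6c1 (3.02 ± 0.27) and Naip5 (4.33 ± 0.46), the last of a family of near-identical copies.

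Interferon-stimulated genes were less uniform, with 12 of 37 called higher and 4 lower (32.4% and 10.8%, against 24.7% and 20.3% over all genes), 5 and 2 apart, and a median of 0.33. With duplicates summed 7 were higher, and without the TGFb libraries 8. The difference was greatest in the IFITM family, small membrane proteins that restrict virus entry and whose genes lie close together on chromosome 7. Ifitm1 had 5.44 and 10.5 CPM with DMSO, 2.85 and 5.38 CPM with ionomycin and 7.11 and 7.34 CPM with TGFb in PD883, and at most 0.472 CPM in any other library (6.0 ± 0.42, adjusted p = 3.7e-09). Ifitm3 had 3.36, 4.89 and 7.42 CPM in PD883, against 0, 0.136 and 0.849 CPM in PD454 and 0.0444, 0.193 and 0.38 CPM in PD7591 (4.46 ± 0.44, adjusted p = 4.4e-07). Both were above all other libraries, at low levels. Ifitm2 had 54.1, 113 and 169 CPM in PD883, against 19, 31.3 and 92.7 CPM in PD454 and 31.2, 44.4 and 97.9 CPM in PD7591 (1.32 ± 0.18, adjusted p = 1.7e-05), above both lines within each treatment but not over all libraries. The 3 genes are similar in sequence, so that reads could be shared, and 40.9% of the exonic bases of Ifitm2 overlap a predicted gene. Oasl1, of the oligoadenylate synthetase family, was lower in PD883 (-1.62 ± 0.20). A promoter window of each gene is shown because these neighbours were higher together in PD883. Each runs from 250 bases before to 50 after 1 annotated RefSeq start (GRCm38.p6), at chr7:140967826-140968125 on the plus strand for Ifitm1, chr7:140955912-140956211 on the minus strand for Ifitm2 and chr7:141010695-141010994 on the minus strand for Ifitm3. Capitals mark the core of the interferon-stimulated response element, GAAANNGAAA, searched on both strands. The RefSeq spans of Ifitm1 and Ifitm2 reach further upstream, and starts there were not searched.
Ifitm1: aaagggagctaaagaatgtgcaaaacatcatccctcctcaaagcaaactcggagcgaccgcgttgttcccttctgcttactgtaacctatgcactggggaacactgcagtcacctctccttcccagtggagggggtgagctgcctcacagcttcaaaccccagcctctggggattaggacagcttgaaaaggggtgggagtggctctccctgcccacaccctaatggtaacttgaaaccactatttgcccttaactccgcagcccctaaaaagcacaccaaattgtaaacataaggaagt
Ifitm2: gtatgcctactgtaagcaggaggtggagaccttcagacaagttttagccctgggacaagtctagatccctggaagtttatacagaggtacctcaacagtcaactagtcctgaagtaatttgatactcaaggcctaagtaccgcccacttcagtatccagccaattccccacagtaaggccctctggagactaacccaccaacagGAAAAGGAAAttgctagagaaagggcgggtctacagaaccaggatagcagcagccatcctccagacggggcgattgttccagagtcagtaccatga
Ifitm3: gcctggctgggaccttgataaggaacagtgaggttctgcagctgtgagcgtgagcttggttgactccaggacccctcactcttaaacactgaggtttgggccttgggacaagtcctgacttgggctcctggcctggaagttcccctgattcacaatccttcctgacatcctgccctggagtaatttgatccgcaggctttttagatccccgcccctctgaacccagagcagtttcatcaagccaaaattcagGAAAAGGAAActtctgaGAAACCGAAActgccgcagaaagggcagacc

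Ifitm3 had 2 such cores, Ifitm2 had 1 and Ifitm1 none in its window, against 1131 of 32851 promoter windows of the same length (3.44%) with at least 1. These counts hold for the windows shown alone. A match is a description of letters and not a sign of binding in these cells.

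Cytokine and NF-kB genes had 6 of 40 called higher and 13 lower (15% and 32.5%, against 24.7% and 20.3% over all genes), 4 and 6 apart, with a median of -0.26. With duplicates summed 3 were higher and 8 lower. Vcam1, an adhesion receptor for leukocytes, had 3.82, 5.54 and 42.5 CPM in PD883, against 12, 30.0 and 45.3 CPM in PD454 and 22.1, 65.8 and 151 CPM in PD7591 (-1.81 ± 0.29). Icam1 (-0.86 ± 0.18) and the cytokine gene Il11 (-1.44 ± 0.30) were lower as well. The chemokine gene Cxcl16 was higher (0.82 ± 0.09), at 36.3, 51.3 and 75.7 CPM in PD883, against 22.9, 29.4 and 41.7 CPM in PD454 and 22.4, 30.7 and 47.6 CPM in PD7591, and Csf1 was higher too (0.50 ± 0.12).

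Detoxification, plasma protein and glycolysis genes leaned higher in PD883, the plasma protein genes not in every setting. Of 51 detoxification and glutathione genes 25 were called higher and 3 lower (49% and 5.88%), 14 and 2 apart, with a median of 0.59. Sult1a1, a sulfotransferase, had 130.1 and 76.3 CPM in PD883 with DMSO, against 17.9 and 29.9 CPM in PD454 and 6.65 and 12.3 CPM in PD7591 (2.46 ± 0.23), and under 0.5 CPM in all lines with TGFb. Ugt2b34, a glucuronosyltransferase, was higher (1.86 ± 0.18). Nqo1, a quinone reductase that NRF2 induces, had 2.78, 5.24 and 9.76 CPM in PD883, against 0.164, 1.3 and 2.27 CPM in PD454 and 0.776, 1.99 and 4.09 CPM in PD7591 (1.96 ± 0.24). Aldh1a1, a retinaldehyde dehydrogenase often used as a marker of progenitor cells, was lower (-1.66 ± 0.22), at 0, 13.7 and 19.7 CPM in PD883, against 0.654, 53.3 and 72.3 CPM in PD454 and 0.469, 29.4 and 52.1 CPM in PD7591. Of 40 plasma protein and liver-type genes 20 were called higher and 2 lower (50% and 5%), but 5 and 1 were apart. Leaving out the 4 libraries with most short transcripts gave 9 of the 40 higher and 2 lower. Over all genes that setting gave 3057 of 13380 higher, a share near that of the list. The excess of higher genes in this list was thus not kept without those libraries. The list had 13 higher with duplicates summed and 12 without the DMSO libraries. Cp, the copper protein ceruloplasmin, had 2102 and 1158 CPM in PD883 with DMSO, against 287 and 259.9 CPM in PD454 and 603 and 825 CPM in PD7591 (1.38 ± 0.19). The transport protein Ttr (2.34 ± 0.36) and the apolipoprotein Apoa1 (1.66 ± 0.28) were higher. With TGFb, PD883 had 0 and 2.84 CPM of Ttr and 0.188 and 2.84 CPM of Apoa1, with each higher value in library 12. The other lines then had at most 0.218 CPM of Ttr and 0.661 CPM of Apoa1. With DMSO, Apoa1 had 559 and 248 CPM in PD883, which overlapped PD454 (202 and 258 CPM) but not PD7591 (66.3 and 91 CPM). Apob (-2.61 ± 0.37), the large lipoprotein scaffold, was lower, at 4.03, 46.5 and 299 CPM in PD883, against 239.7, 603 and 2474 CPM in PD454 and 27.9, 57.1 and 478 CPM in PD7591.

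Glycolysis and hypoxia genes had 16 of 27 called higher and 2 lower (59.3% and 7.41%), 12 and 1 apart, with a median of 0.49. Without the DMSO libraries 8 were higher, and with duplicates summed 7. Car12, a membrane carbonic anhydrase of hypoxic and secretory epithelium, had 16.6, 25.2 and 36.7 CPM in PD883, against 2.4, 3.75 and 10.0 CPM in PD454 and 0.991, 2.06 and 2.88 CPM in PD7591, with no overlap (3.22 ± 0.19, adjusted p = 5.9e-10). Aldoc, an aldolase, had 211 and 141 CPM in PD883 with DMSO, against 16.7 and 12.6 CPM in PD454 and 20.3 and 29.4 CPM in PD7591 (2.17 ± 0.29), and Pfkm, a phosphofructokinase, was higher by 0.69 ± 0.07. Slc16a1, the lactate carrier MCT1, was lower (-0.63 ± 0.10).

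Epithelial channels and guidance genes were called in both directions. Of 25 ion channels and transporters of epithelia 7 were called higher and 10 lower (28% and 40%), 3 and 9 of them apart. With duplicates summed or without the ionomycin libraries 4 were higher, and without the DMSO libraries 3. Trpv4, a calcium-permeable channel gated by swelling and warmth, had 0.469, 0.82 and 2.73 CPM in PD883, against 6.6, 8.19 and 12.2 CPM in PD454 and 11.2, 15.6 and 18.6 CPM in PD7591 (-3.21 ± 0.27, adjusted p = 6.1e-08). Aqp5, the apical water channel of glands, had 2.63, 4.67 and 5.44 CPM in PD883, against 6.54, 32.5 and 49.9 CPM in PD454 and 12.7, 52.5 and 169 CPM in PD7591 (-2.91 ± 0.31). Each was below every library of the other lines. Clca3a1, a secreted regulator of chloride currents, went the other way, at 10.1, 34.2 and 59.6 CPM in PD883, against 0.491, 4.71 and 6.75 CPM in PD454 and 0.433, 1.07 and 2.97 CPM in PD7591 (3.76 ± 0.28). Of 41 axon guidance, ephrin and neural adhesion genes 6 were called higher and 12 lower (14.6% and 29.3%), against 2 and 5 with duplicates summed and 6 lower without the ionomycin libraries. The semaphorin Sema3e had 1.17, 3.62 and 7.53 CPM in PD883, against 4.34, 24.4 and 61.5 CPM in PD454 and 7.36, 24 and 37 CPM in PD7591 (-2.75 ± 0.22), and the SLIT receptor Robo1 0.308, 0.65 and 1.32 CPM in PD883, against 1.13, 2.96 and 8.83 CPM in PD454 and 5.37, 19 and 24.7 CPM in PD7591 (-3.44 ± 0.29). Of 20 imprinted genes 2 were called higher and 8 lower (10% and 40%), with 4 lower when duplicates were summed. Among those apart, Ube3a (-0.48 ± 0.12) was lower and Gnas (0.51 ± 0.12) higher. The call of Gnas was lost without the DMSO libraries, and both genes overlap antisense transcripts, whose reads cannot be told apart here.

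**Figure D3:**
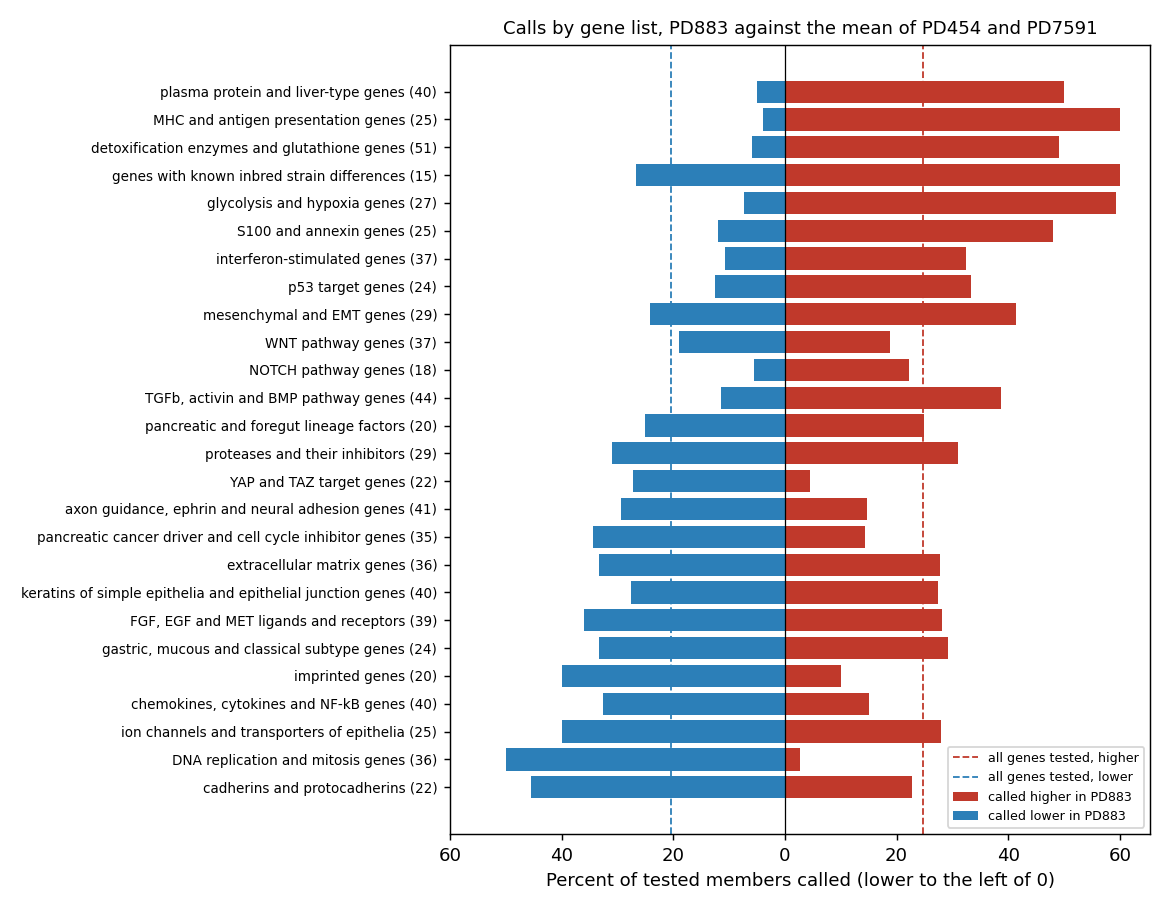
Percent of the tested members of each gene list called higher (red, right of 0) and lower (blue, left of 0) in PD883 against the mean of PD454 and PD7591; numbers in brackets are tested members, and dashed lines give 24.7% higher and 20.3% lower over all genes. MHC genes reach 60% higher, and DNA replication and mitosis genes 50% lower.

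Within each treatment taken alone the line difference was tested again on 2 PD883 and 4 other libraries. With DMSO alone 3804 genes were called between PD883 and the other lines (28.4%), of which 2171 were higher (16.2%) and 1633 lower (12.2%). With ionomycin alone 3699 were called (27.6%), 2045 higher (15.3%) and 1654 lower (12.4%), and with TGFb alone 1937 (14.5%), 1145 higher (8.56%) and 792 lower (5.92%). These contrasts share no library with each other, but each shares its libraries with the comparison over all treatments. The ionomycin and DMSO calls shared 2026 genes in the same direction, 54.8% of the ionomycin and 53.3% of the DMSO calls, and 27 in opposite directions. The TGFb and DMSO calls shared 1236, 63.8% of the TGFb and 32.5% of the DMSO calls, and 22 were opposite. TGFb and ionomycin shared 1027, 53% of the TGFb and 27.8% of the ionomycin calls, with 52 opposite. In all 3 treatments 869 genes were called in the same direction, and of the genes apart 415 were called higher and 355 lower in each treatment on its own. The counts with few libraries moved when 1 was left out. With DMSO alone they were 1651 without PD7591 library 1, 1953 without PD7591 library 2 and 1936 without PD883 library 7. With ionomycin alone they were 1662 without PD883 library 9, 2282 without PD454 library 15 and 1935 without PD454 library 16. With TGFb alone they were 833 without PD7591 library 5, 949 without PD7591 library 6 and 1071 without PD454 library 17.

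In DMSO alone, Cldn18 was higher by a log2 fold change of 8.35 ± 0.22, Cdx2 by 2.38 ± 0.17, Wnt4 by 3.31 ± 0.32 and B2m by 1.20 ± 0.19, and Irx3 was lower (-6.57 ± 0.30), as were Pxdn (-4.66 ± 0.25), Muc1 (-3.25 ± 0.23), Gata6 (-1.0 ± 0.14) and Mki67 (-1.06 ± 0.24). Each was called in that contrast by edgeR. With TGFb alone Cldn18 (10.02 ± 0.30), Cdx2 (3.43 ± 0.24), Wnt4 (2.64 ± 0.38), B2m (0.70 ± 0.18), Irx3 (-4.96 ± 0.22), Pxdn (-4.21 ± 0.18), Muc1 (-1.16 ± 0.31) and Mki67 (-1.34 ± 0.27) were called again, and Gata6 was not (-0.67 ± 0.25, adjusted p = 0.11). In the plot of line differences by treatment the genes drawn, other than Hnf4a and Foxa2, are genes apart. Their same sign in all 3 treatments was a condition of being apart.

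**Figure D4:**
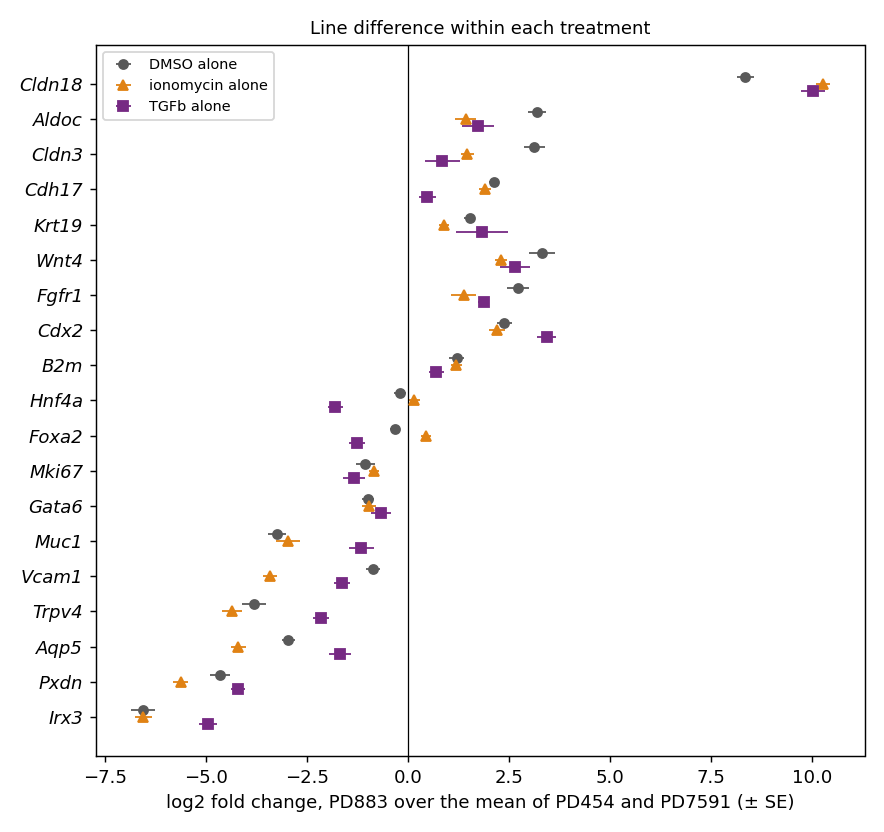
Log2 fold change of PD883 over the mean of PD454 and PD7591 within each treatment (circles DMSO, triangles ionomycin, squares TGFb), with bars of 1 SE. Cldn18 lies at 8.35 to 10.26 and Irx3 at -4.96 to -6.57 in all 3, while Hnf4a lies at -0.20 with DMSO, 0.16 with ionomycin and -1.80 with TGFb.

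The difference of PD883 from the others was tested for equality over the 3 treatments, and 766 genes (5.72%) departed from it, with 178 of them among the 2951 genes apart (6.03%). The count was 457 without PD7591 library 1, 435 and 489 without PD7591 libraries 5 and 6, 496 without PD883 library 7, 417 without PD883 library 9, and 485 and 450 without PD454 libraries 15 and 16. Hnf4a differed between lines mainly with TGFb. It had 340.2 and 309 CPM with DMSO in PD883, against 439 and 368 CPM in PD454 and 330.0 and 345 CPM in PD7591, but 32.6 and 24.2 CPM with TGFb in PD883, against 203 and 183 CPM in PD454 and 45.6 and 60.4 CPM in PD7591 (adjusted p for dependence = 9.5e-04). Foxa2 had 11.6 and 7.91 CPM with TGFb in PD883, against 28.7 and 31 CPM in PD454 and 19.1 and 19 CPM in PD7591, a log2 fold change of -1.27 ± 0.19 in that treatment, was higher with ionomycin (0.44 ± 0.13) and was not called with DMSO (-0.33 ± 0.13).

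Col7a1, Traf1 and Fes had among the smallest p for dependence of the genes called over all treatments. Col7a1, the collagen of anchoring fibrils, was low in PD883 with DMSO, at 12.2 and 10.0 CPM, against 82.8 and 66.5 CPM in PD454 and 34.3 and 33.5 CPM in PD7591, and reached 1497 and 1681 CPM with TGFb in PD883, against 1277 and 1256 CPM in PD454 and 1216 and 1112 CPM in PD7591 (adjusted p = 2.7e-05). Traf1, an adaptor of TNF receptors, was higher in PD883 with DMSO (2.05 ± 0.17) and with ionomycin (2.72 ± 0.18), and its difference with TGFb was -0.04 ± 0.21 (adjusted p = 1.4e-04). The call of Col7a1 over all treatments was lost without the DMSO libraries, and without PD883 library 7 (-1.28), 8 (-1.23), 9 (-1.12) or 10 (-1.16). Fes, a tyrosine kinase gene, had its largest difference with ionomycin (-4.73 ± 0.27, adjusted p for dependence = 1.5e-04). With DMSO Vcam1 was at 42.5 and 41.2 CPM in PD883, level with PD454 (41 and 45.3 CPM) and below PD7591 (113 and 151 CPM). With ionomycin it was at 3.82 and 4.62 CPM, against 29.2 and 30.7 CPM in PD454 and 60.1 and 71.5 CPM in PD7591. Its difference depended on treatment (edgeR, adjusted p = 2.6e-04). Col1a1, a fibrillar collagen of fibroblasts, had 85.4 and 62.6 CPM with TGFb in PD883, against 16.4 and 17.2 CPM in PD454 and 5.21 and 7.93 CPM in PD7591, and its call against the mean of the other lines was lost without the TGFb libraries.

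The line difference also varied by chromosome. The median log2 fold change was 0.02 over autosomal genes and -0.26 over the 427 tested genes of chromosome 16, of which 42.9% were called lower and 7.96% higher. It was -0.22 on chromosome 4 and -0.17 on chromosome 19. It was 0.21 over the 1118 genes of chromosome 11, of which 38.6% were called higher and 12.4% lower, and 0.19 on chromosome 13. On these 5 chromosomes the sign was the same against each other line: -0.26 against PD454 and -0.33 against PD7591 on chromosome 16, and 0.23 and 0.17 on chromosome 11. The medians with DMSO, ionomycin and TGFb alone were -0.31, -0.28 and -0.23 on chromosome 16 and 0.22, 0.17 and 0.22 on chromosome 11. Chromosome 12 (-0.31 against PD454 and -0.01 against PD7591) and chromosome 17 (0.30 against PD454 and -0.01 against PD7591) had a median away from 0 against PD454 alone, and chromosome 15 had medians of opposite sign (-0.08 against PD454 and 0.30 against PD7591). No measure of DNA was used here, so shifts of chromosome copies and of transcription cannot be told apart.

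**Figure D5:**
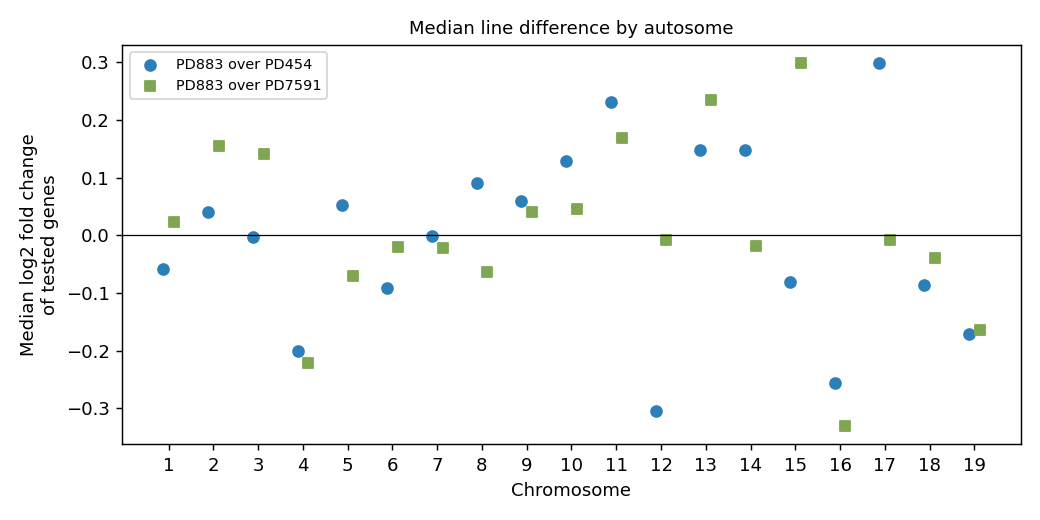
Median log2 fold change of PD883 over PD454 (blue circles) and over PD7591 (green squares) for the tested genes of each autosome. Chromosomes 4, 16 and 19 lie below 0 and chromosomes 11 and 13 above 0 against both lines.

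Runs of at least 5 neighbouring tested genes apart in the same direction occurred at 6 places. On chromosome 13 the run chr13:15463723-17699112 held Gli3 and Inhba among 5 genes that were higher, with a median log2 fold change of 1.21, and chr13:52504375-53286124 held Syk and Ror2, with a median of 0.98. Chromosome 11 held a pair of runs of 5 higher genes, at chr11:115584255-115708597 (median 0.42), with Grb2, and chr11:116008357-116086995 (median 0.63), with Galk1. The run that was lower lay at chr4:155260118-155624755, with Prkcz and Gnb1, and a median of -0.79. The run chr17:6256726-6620925 held Tmem181a and Dynlt1a with near-identical copies, among which reads could be shared. The genes named in these runs, other than Gli3 and Ror2, were chosen after their values were seen.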

How the data were processed

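Total RNA of 18 libraries, 2 for each of 3 lines and 3 treatments, was sequenced. The authors deposited raw read counts per gene symbol. CASAVA, Trimmomatic 0.32, STAR, featureCounts and the build mm10 are named per the submitters' processing notes; their settings, the annotation release and the strand mode were not given in the sources used here.

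Of 24527 entries deposited, 5059 had no counts. Chromosomes came from RefSeq GRCm38.p6 by symbol (23651 entries) or synonym (740), and 136 entries had none. The 1119 entries on chromosomes X and Y, 447 of them past the filter, were left out. Another 26 entries had names turned into dates by a spreadsheet (19 tested, at most 0.321% of counts). After edgeR's filterByExpr 13380 genes were tested, 54 of them with no chromosome.

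Counts were scaled by TMM and fitted in edgeR 4.0.16 (R 4.3.3) by quasi-likelihood on line and treatment, with PD454 and PD7591 weighted equally. The same contrast was fitted in each treatment alone, and its dependence on treatment with a mean per group. P-values were Benjamini-Hochberg adjusted over all genes tested, and called means under 0.05. Fold changes are on the log2 scale ± SE, the size of the fold change over the root of its F statistic. CPM of single genes use TMM-scaled totals of the tested genes, sums over marker lists use full library totals, and component analysis used log2 CPM with a prior count of 2. Alternatives included DESeq2 1.42.0 and limma-voom (limma 3.58.1), other scalings, no filter, and leaving out libraries or treatments. The pipeline was checked on simulated counts. Intervals and floors of 3 counts cover counting error only.

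The line, the gene lists and the tests were chosen with earlier results of these data known. Named genes were drawn from the 12 largest differences each way among genes apart with at least 5 CPM, up to 3 genes each way per list by p, a panel of carcinoma genes and the 4 genes most dependent on treatment; the text names part of them, and certain genes are not reported here. Overlaps of exons were counted in the GENCODE vM21 annotation, and RefSeq GRCm38.p6 gave the sequences.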

Additional observations from a re-analysis of the deposited data

Results flagged for a closer look

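The difference between PD883 and the mean of PD454 and PD7591 was tested for equality in the 3 treatments, and 31 genes named in the report departed from it (edgeR, Benjamini-Hochberg adjusted p under 0.05 over all genes tested). Over all genes 5.72% did so. Some of the named genes were chosen for the smallest p in this same test, so the 31 are not a measure to set beside that share.

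In the genes named here the smallest p belonged to Col7a1 (adjusted p = 2.71e-05), Traf1 (0.00014), Fes (0.00015) and Vcam1 (0.000261). Among lineage factors these were Hnf4a (adjusted p = 0.000951), Foxa2 (0.00146), Irx3 (0.0125) and Sox9 (0.0397). Sox9 was higher in PD883 with ionomycin (1.39 ± 0.27) and was not called with DMSO (0.32 ± 0.15) or TGFb (-0.34 ± 0.26).

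Among epithelial and mucous genes these were Cdh17 (adjusted p = 0.00432), Tm4sf4 (0.00535), Cldn18 (0.00847), Cldn3 (0.0171), Muc1 (0.0284), Cdh3 (0.0294), Krt8 (0.0298) and Sfn (0.0368). Cdh17 was higher with DMSO (2.13 ± 0.12) and ionomycin (1.90 ± 0.14) and was not called with TGFb (0.47 ± 0.21). Cldn3 had differences of 3.13 ± 0.27 with DMSO, 1.47 ± 0.16 with ionomycin and 0.85 ± 0.42 with TGFb, the last not called. Muc1 was lower in all 3 treatments, by -3.25 ± 0.23 with DMSO and -1.16 ± 0.31 with TGFb.

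Among matrix, adhesion and mesenchymal genes these were Col1a1 (adjusted p = 0.00391), Pxdn (0.0161), Icam1 (0.0221), Cdh13 (0.0278), Vim (0.0306) and S100a4 (0.0474). Vim was called within the DMSO libraries alone (0.84 ± 0.17), at 2951 and 2109.6 CPM in PD883, against 1684 and 1790.2 CPM in PD454 and 1136 and 1107 CPM in PD7591. Among channels, signals and secreted proteins these were Aqp5 (adjusted p = 0.00113), Trpv4 (0.00304), Notch4 (0.0197), Cdon (0.0209), Serpina3h (0.0217), Fst (0.0221), Fgfr1 (0.0224), Igfbp3 (0.0234) and Amotl1 (0.0419).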

How the results depend on the processing

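Counts of called genes stayed within 1.5 times of those reported under other scalings, tests, filters and models, from 4829 without the ionomycin libraries to 6821 with a mean per group for the comparison with the mean of the other lines. With a required log2 fold change of at least 1, 559 genes were called against the mean, 628 against PD454, 736 against PD7591 and 240 were apart. Of the 559 genes 61.5% were higher, against 54.9% without that requirement. Without the DMSO libraries the counts were 3922 against the mean, 3234 against PD7591 and 1471 apart. With duplicates summed they were 3091, 2683 and 2702 against the mean, PD454 and PD7591, with 1162 apart. Leaving out 1 library gave 5181 to 6265 genes against the mean, 4926 to 5914 against PD454, 4591 to 5802 against PD7591 and 2435 to 3142 apart. It gave 1651 to 4186 with DMSO alone, 1662 to 4460 with ionomycin alone, 833 to 2254 with TGFb alone and 417 to 1138 for dependence on treatment. In single-treatment fits that leave 1 library in a line, that library is taken to vary like the others. The cause of these shifts was not tested.

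Of 125 named genes called against the mean, 115 kept call and direction in every alternative other than the fold requirement, which ended 51 calls, and none changed sign. Signs changed only for genes not called. Without the DMSO libraries these were Trp53 (0.085), Pdx1 (-0.10), Krt7 (0.0033) and Vim (-0.093). Without the ionomycin libraries this was Sox9 (-0.083), and without the TGFb libraries Smad4 (0.027), Foxa2 (0.065), Krt8 (0.0034) and Cdh1 (0.057). Without the 4 libraries rich in short transcripts these were Smad4 (0.016) and Pdx1 (-0.033), and without 1 library Pdx1 ran from -0.092 (without PD883 library 10) to 0.167 (without PD883 library 9). Calls lost without 1 library were those of Cdkn2b and Col7a1. No paired analysis was possible because the lines share no library numbers.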
